A study of Homo sapiens with 47 samples.

Results

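The ATAC-seq libraries of 451Lu melanoma cells with a hairpin against the CAF-1 subunit p150 (shp150) were compared with those of NT control cells. These are 4 of the 47 samples of the series, 2 libraries per group, chosen by their labels and not by any measured value. The series studied resistance to the BRAF inhibitor vemurafenib in the human melanoma cell lines 451Lu and WM983B. ATAC-seq finds open chromatin from the places where the enzyme Tn5 can insert adapters into DNA. The shp150 cells carry a short hairpin RNA against p150, and the NT cells carry an NT control that the labels do not spell out. No drug, time point, clone or hairpin sequence is named for either group. The labels do not say whether replicates were grown separately, so p-values measure only a spread that may be technical. Other 451Lu ATAC-seq libraries serve below as a reference that the comparison itself did not use. These are parental and vemurafenib-resistant cells, a vector control, cells that over-express the AP-1 subunits c-JUN and c-FOS (AP1), and cells with both changes (shp150_AP1) beside their own control (vector_NT), 2 libraries each. Parental and resistant WM983B cells add 4 more libraries.

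CAF-1 is the histone chaperone that places new histones H3 and H4 on DNA just copied at the replication fork. Its large subunit p150, encoded by CHAF1A, binds the replication clamp PCNA and the heterochromatin protein HP1. Depletion of CAF-1 is known to loosen chromatin and to ease changes of cell identity in several cell types. AP-1 is a transcription factor of JUN and FOS proteins that binds enhancers. These libraries do not measure the level of p150, so the strength of the knockdown is not known here. The build of the peak lists, hg19, had no gene annotation or genome sequence here, so regions are given by position and not by gene or sequence.

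The shp150 lists were shorter than the NT lists, and their peaks were narrower and scored lower. The NT lists held 55609 and 53419 peaks on chromosomes 1 to 22 and X, and the shp150 lists 43913 and 42898. The mean difference, shp150 minus NT, was -20.4%, and the groups did not overlap. Peaks covered 26.9 and 24.0 Mb of the genome in NT cells and 18.3 and 18.1 Mb in shp150 cells. The median peak was 423 and 391 bp wide in NT and 364 and 367 bp in shp150 libraries. The median score, the value the authors' peak caller gave each peak, was 10.2 and 8.76 in NT and 7.66 and 7.65 in shp150 libraries. The shp150 libraries were thus nearly alike in these values, while the NT libraries differed from each other by more. Each of the 4 differences gave an exact two-sided permutation p of 0.333, the smallest that 2 libraries against 2 can give. The lowest score was 2.002 to 2.024 in all 4 lists. Peak lists carry no sequencing depth, so how far depth differed between the groups is unknown.

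**Figure D1:**
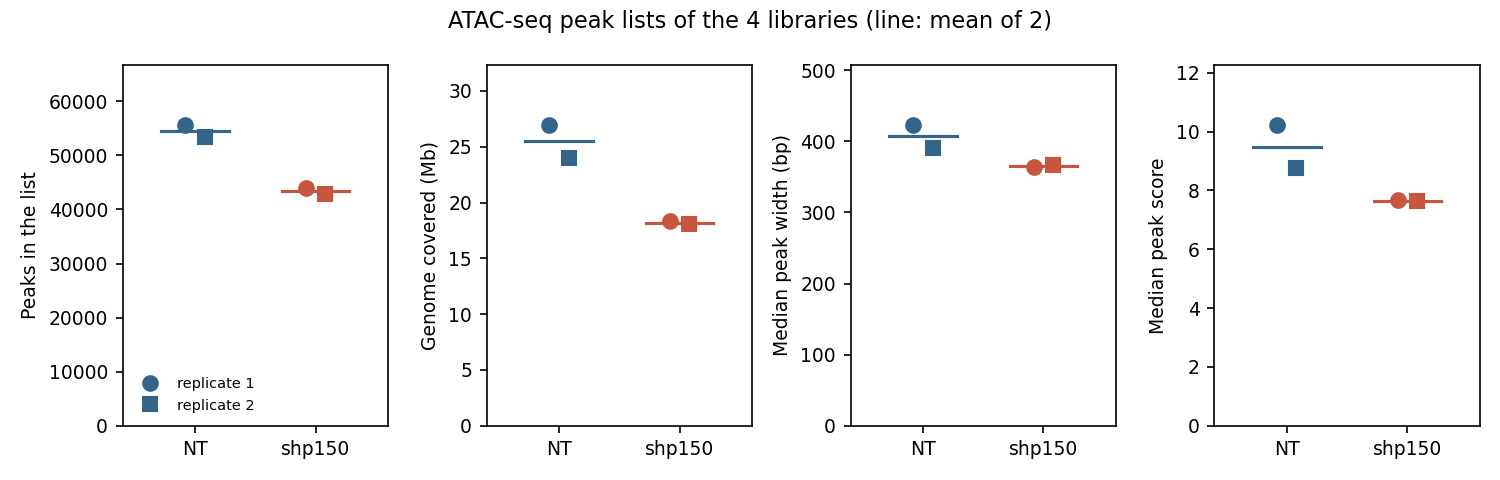
Number of peaks, genome covered (Mb), median peak width (bp) and median peak score of the NT (blue) and shp150 (red) libraries, with a circle for replicate 1, a square for replicate 2 and a line at the mean of the 2. Both shp150 libraries lie below both NT libraries in each panel.

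The other comparisons of engineered with control cells gave smaller differences in list length. The mean difference in list length, AP1 minus vector, was -4.33% (50194 and 55840 against 56824 and 54014 peaks). The combined cells, which carry the same kind of hairpin, had lists 5.16% longer than vector_NT (84393 and 88478 against 84718 and 79670 peaks). In both cases the groups overlapped (exact two-sided permutation p = 0.667 for each). Peaks of the combined cells were narrower than those of vector_NT (454 and 453 against 477 and 471 bp), without overlap, and scored lower (11.8 and 12.03 against 13.2 in both). Whether the effect of the hairpin on list length differed between single and combined cells was not tested.

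The 4 lists merged into 69032 regions, and a region counted as called in a library when at least 1 bp of it was covered by a peak. Lost regions were called in both NT and in neither shp150 library, and gained regions the reverse. Lost regions numbered 5185 (7.51% of regions, covering 2.04 Mb) and gained regions 516 (0.747%, 0.170 Mb), 10.05 losses for each gain. Another 30093 regions were called in all 4 libraries and covered 21.7 Mb. Since each list covers many cells, fewer cells with an open site and a lower signal per cell cannot be told apart. Leaving out a library loosens the rule. Losses then numbered 11214 without NT replicate 1, 12459 without NT replicate 2, 9596 without shp150 replicate 1 and 9125 without shp150 replicate 2. Gains numbered 1604, 1128, 3268 and 3458 in the same order.

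The excess of losses over gains depended strongly on list length. When each list was cut to its 42898 best-scoring peaks, the length of the shortest, 2032 regions of 59803 were lost (3.4%) and 1362 gained (2.28%), or 1.49 losses for each gain. The cut removed 12711 and 10521 peaks from the NT lists, 1015 from shp150 replicate 1 and none from replicate 2. It left NT peaks with scores of at least 6.47 and 5.34, but shp150 peaks down to 3.03 and 2.02. Of the 2032 losses at equal length, 95.9% (1949) were called in neither full shp150 list. Of the 1362 gains at equal length, only 34.9% (475) were called in neither full NT list. In the other gains, a weaker NT peak had been cut: 49.05% of the 1362 were called in the full list of NT replicate 1 and 39.1% in that of replicate 2. The contrast between 95.9% and 34.9% follows from the cut itself, which fell almost wholly on the NT lists.

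Replicates shared a limited part of their calls. Of the 62904 regions called in either NT library, 69.3% were called in both, and of the 51257 called in either shp150 library 63.0% were. The base overlap between lists (Jaccard index) was 0.605 between the NT libraries and 0.528 between the shp150 libraries. Between an NT and a shp150 library it ranged from 0.517 to 0.530. The shp150 replicates thus overlapped no more with each other than one of them did with NT replicate 2. Within replicate number 1, 17465 regions were called only in NT and 5158 only in shp150 cells, and within number 2 these were 16316 and 5672. Regions called in 1 NT library and no shp150 library (12590) outnumbered the losses, and regions called in 1 shp150 library and no NT library (5612) outnumbered the gains. These single-library regions serve below as the nearest neighbours of lost and gained regions, just outside the rule.

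Losses were concentrated among weak regions. The 43573 regions called in both NT libraries were divided into 5 classes by the lower of their 2 NT scores. In the lowest class (scores 2.04 to 5.76) 35.4% of regions were lost, 37.6% kept a call in 1 shp150 library and 26.99% in both. In the next class 17.4% were lost, and in the middle class (7.96 to 11.2) 5.24%. In the fourth class 47 of 8726 regions were lost (0.539%, exact 95% binomial interval 0.396 to 0.716%). In the highest class (16.7 to 79.4) 1 of 8703 was lost, and 99.6% were called in both shp150 libraries. Strongly open NT regions were therefore nearly all still listed in shp150 cells. The classes use scores of the same lists that define a loss, and a peak is listed only above a lowest score. Weak regions thus drop out of any other list more easily, and a gradient of this direction is built into the calls. How much of it goes beyond that was not tested. The exact intervals here and below cover counting error over regions only, not the spread between libraries.

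**Figure D2:**
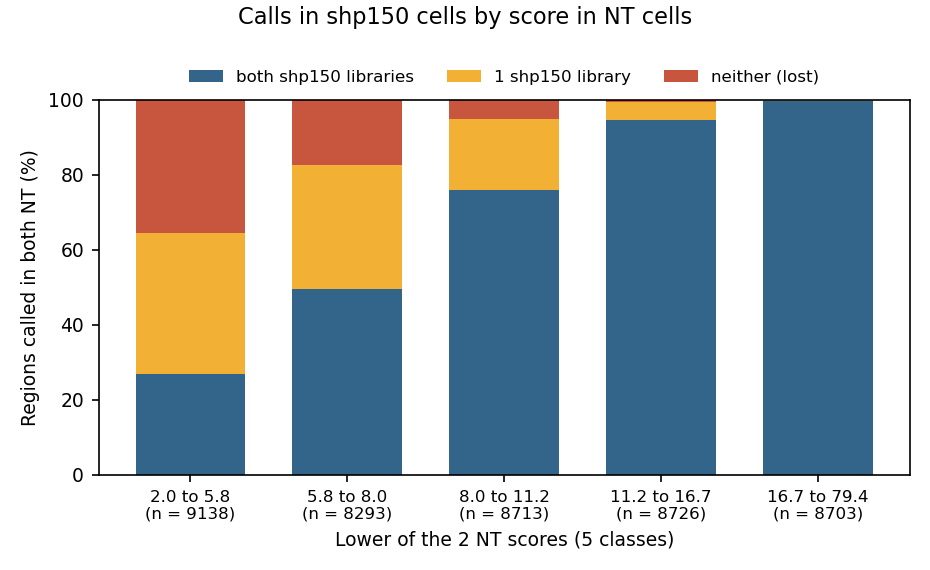
Share (%) of regions called in both NT libraries that were called in both (blue), 1 (yellow) or neither (red, lost) of the shp150 libraries, by class of the lower NT score, with the number of regions in each class. The lost share is 35.4% in the lowest class and close to 0 in the highest.

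Lost regions had a median score of 6.79 in NT replicate 1 and 5.76 in replicate 2, against 15.8 and 13.1 for regions called in all 4 libraries. As merged regions they were 377 bp wide at the median, against 654 bp. A merged region spans the peaks of every list that calls it, so its width tends to rise with the number of lists by construction. Gained regions were 317 bp wide, with median scores of 4.90 and 4.89 in the shp150 libraries. Regions called in a single library were 234 bp wide for NT and 212 bp for shp150. Taken one list at a time, the peaks at losses were 302 and 274 bp wide at the median in the NT libraries. Those at gains were 234 and 228 bp wide in the shp150 libraries. Regions just outside the loss rule, called in both NT and 1 shp150 library (8295), scored 8.25 and 7.01 in NT cells. Where one of them was called in shp150 cells, its score there had a median of 5.77 in replicate 1 and 5.59 in replicate 2. Regions just outside the gain rule, called in 1 NT and both shp150 libraries (1660), scored 5.40 and 5.35 in shp150 cells. Lost and gained regions thus lay in the lower part of each list. These scores are from the lists that define the classes, so low scores are partly built in, as for the score classes above.

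The regions called in all 4 libraries show the difference in score at sites that stayed open. Both shp150 scores were below both NT scores in 18777 of the 30093 regions (62.4%) and above both in 522 (1.73%). A score moves with depth, so each library's scores were also turned into ranks within these same 30093 regions. By rank, 5538 regions (18.4%) lay lower in both shp150 libraries than in both NT libraries, and 5615 (18.7%) lay higher. Ranks sum to the same total in each library, so the near balance of the 2 counts follows from the method. With 2 libraries per group, a sizeable share of regions takes either order even where the groups do not differ. Whether the 2 counts exceed that share was not tested, so they are not counts of regions changed in shp150 cells. The order of regions was most alike between the NT replicates. Spearman's rho over the 30093 regions was 0.790 between the NT replicates, 0.693 between the shp150 replicates and 0.707 to 0.720 between the groups. These regions share libraries and neighbourhoods, so the coefficients are descriptive. Regions that carried H3K27ac (histone acetylation found at active regulatory DNA) in parental cells had a median rank change of -0.442 percentile points in shp150 cells, and those without it 0.225. Both are small beside single regions, which ranged from -74.8 to 74.8.

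The best-scoring losses were sites open in most other melanoma libraries. Of the 10 lost regions with the highest lower NT score, 6 were called in all 12 other 451Lu ATAC-seq libraries and all 10 in all 4 WM983B libraries. Of all losses, 30.4% were called in all 12, and of all regions called in both NT libraries 74.3%. Single WM983B libraries called 79.92 to 81.85% of all regions. First in order among the 10 was chromosome 22, 30721161 to 30721519, with NT scores of 18.6 and 17.9. It was called in vector (10.2 and 8.51), AP1 (8.18 and 8.79), vector_NT (24.8 and 27.8), shp150_AP1 (27.8 and 30.6), parental (30.5 and 26.5) and resistant cells (32.9 and 31.8). Its absence from both shp150 lists was thus not repeated in the combined cells, which carry a hairpin against p150 as well. The shp150_AP1 lists were much longer than the shp150 lists, however, and called 84.03% and 85.5% of all regions. The part of list length in this call was not tested. Scores are not comparable in size between lists of unequal depth and serve here to show the call.

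A lost region on chromosome X, 128734762 to 128735287, had NT scores of 14.7 and 17.7 and was called in all 12 other libraries, at 32.2 and 28.1 in shp150_AP1. On chromosome 12, 124994285 to 124994806 (NT 14.5 and 15.5) and 104713857 to 104714248 (14.5 and 15.3) were likewise called everywhere else in 451Lu. The second of these scored 85.7 and 88.0 in parental, 88.3 and 85.2 in vector_NT and 31.1 and 42.02 in shp150_AP1 libraries. Of the 10 losses it had the highest scores in parental cells. Those at chromosome 5, 171550206 to 171550707 (NT scores 18.5 and 13.5), and at chromosome 11, 128660127 to 128660581 (NT scores 13.9 and 13.4), were also called in all 12. The region at chromosome 5, 80704243 to 80704639 (17.5 and 13.5), was missing only from resistant replicate 1.

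The other 3 best-scoring losses were open in few other 451Lu libraries. The region at chromosome 22, 20881089 to 20881475 (NT 14.7 and 14.85), was called elsewhere in 451Lu only in resistant replicate 2 (10.3). The region at chromosome 1, 222164596 to 222165088 (NT 21.2 and 13.6), was called in both vector (7.10 and 9.20) and both AP1 libraries (9.09 and 12.4) and in no parental, resistant or doubly engineered library. The region at chromosome 12, 71950739 to 71951086 (13.6 and 13.5), was called in both resistant libraries, AP1 replicate 1 and shp150_AP1 replicate 1. None of the 10 overlapped parental H3K27ac or an H3K9me3 island in parental or vector_NT cells. Over all regions, parental H3K27ac overlapped 17.3%. H3K9me3 islands overlapped 5.18% in parental and 5.70% in vector_NT cells (means of 2 libraries). With shares this low, 10 regions are too few to differ clearly from all regions. On lists of equal length the 5 best-scoring losses were the first 5 of the full lists.

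**Figure D3:**
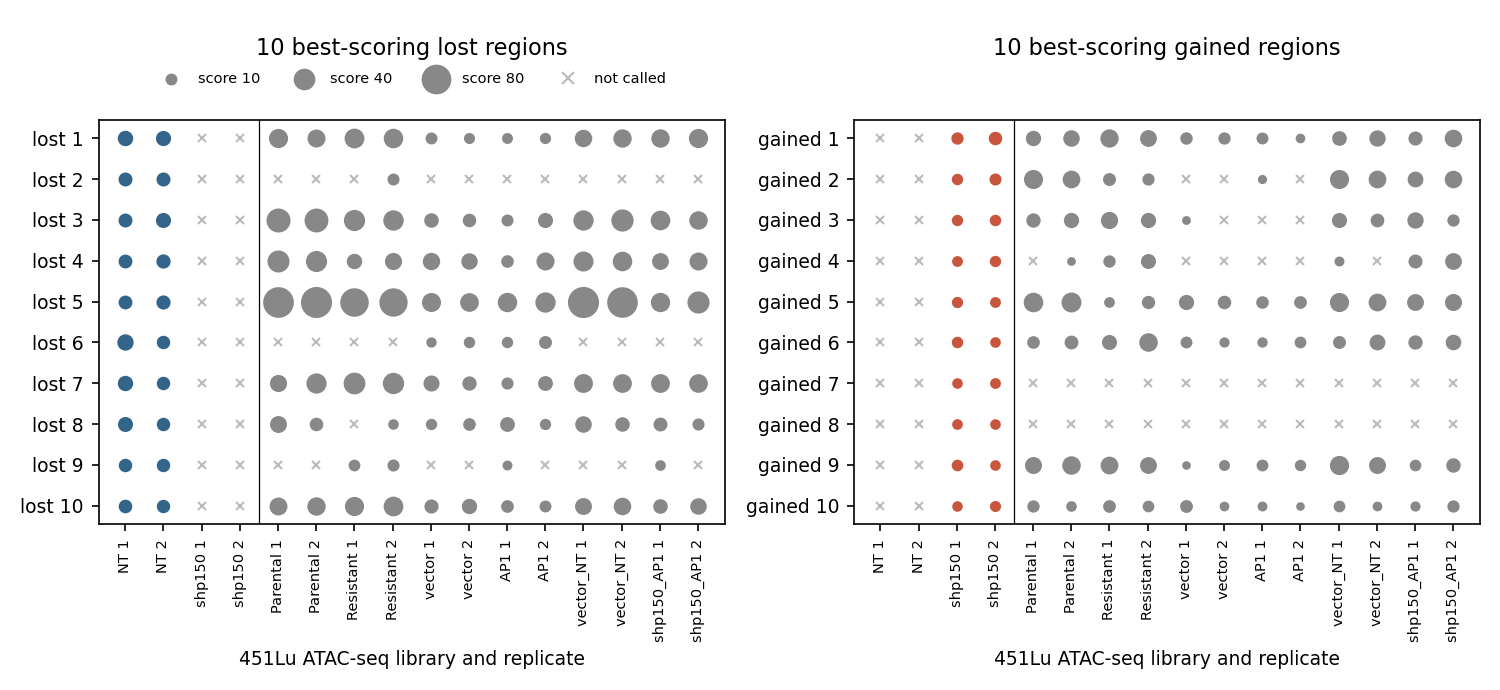
The 10 best-scoring lost (left) and gained (right) regions, in order of the lower score of the 2 calling libraries, across 16 ATAC-seq libraries of 451Lu. Dot area is proportional to the peak score, NT is blue, shp150 red, other libraries grey, and a cross marks no call. Most rows are filled in the other libraries, and gained regions 7 and 8 are called in none of them.

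Most of the best-scoring gains, whose scores come from the shp150 lists and cannot be set against those of losses, were also open elsewhere. The first lay at chromosome 2, 156022113 to 156022527, with shp150 scores of 11.0 and 13.7, and was called in all 12 other 451Lu libraries, among them both vector libraries (11.2 and 10.9). The next, also on chromosome 2, 149584384 to 149584683 (9.07 and 10.4), was called in all parental, resistant and doubly engineered libraries but in neither vector library. It overlapped an H3K9me3 island in both parental and both vector_NT libraries. So did the gain at chromosome 3, 21196354 to 21196855 (8.75 and 7.996), which was called in all 12. H3K9me3 is a histone mark of heterochromatin, and these were the only 2 of the 10 that overlapped such an island. Islands of vector_NT cells overlapped 7.56% of all gains and 5.70% of all regions (means of 2 libraries), and 10 regions are too few to compare with these shares.

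Among the other gains, chromosome 3, 73105299 to 73105649 (9.21 and 7.70), chromosome 4, 25435835 to 25436118 (9.56 and 7.53), and chromosome 7, 134012703 to 134012960 (7.43 and 8.51), were called in all 12 other libraries. The gain at chromosome 2, 32206018 to 32206294 (8.90 and 9.16), was called in 9 of the 12, and of the vector and AP1 libraries only in vector replicate 1 (4.79). The gain at chromosome 15, 70563779 to 70564233 (8.03 and 8.90), differed from these. It was called in both resistant (11.06 and 17.4) and both shp150_AP1 libraries (14.9 and 22.6), in parental replicate 2 (4.63) and in vector_NT replicate 1 (6.52), and in no vector or AP1 library. All 4 WM983B libraries, parental and resistant, called it too.

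No other 451Lu library called the gain at chromosome 2, 127566739 to 127567047 (7.55 and 7.996), and no WM983B library did. The gain at chromosome 13, 108200644 to 108200973 (7.77 and 7.55), was likewise called in no other 451Lu library but in all 4 of WM983B. At equal length the best-scoring gains included 3 regions that the full NT lists also held at lower scores. At chromosome 15, 26539244 to 26539537, the scores were 5.26 and 3.36 in NT and 10.01 and 10.2 in shp150 cells. At chromosome 19, 46919751 to 46920100, they were 2.998 and 5.34 against 10.01 and 9.97. At chromosome 2, 191377340 to 191377721, they were 5.03 and 3.07 against 9.81 and 11.6. The rule fixes this order, since an NT peak had to score low to be cut and the regions were picked for high shp150 scores.

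Across all members, most lost and gained regions were listed in other 451Lu libraries. Of the 5185 losses, 94.5% were called in at least 1 of the 12 other libraries and 30.4% (1576) in every one. Of the 516 gains, 91.5% were called in at least 1 and 20.5% (106) in every one. Of the regions called in all 4 libraries, 99.65% were called in at least 1 and 87.6% in every one. At least 1 also called 98.7% of the regions called in both NT libraries. The same share was 86.5% for regions called in 1 NT library only and 79.4% for those called in 1 shp150 library only. A call in at least 1 of the 12 thus held for most regions of every class. Vector cells, whose lists were close to NT lists in length, called 60.2% and 55.7% of the losses and 49.4% and 44.6% of the gains. Over all regions the vector shares were 70.2% and 67.8%. Vector cells called 36.7% and 32.0% of regions found in 1 NT library only, and 28.7% and 26.4% of those found in 1 shp150 library only. On full lists, losses were thus called more often in vector cells than gains, and both more often than the single-library regions. At equal length the vector libraries called 67.03% and 63.1% of losses and 63.3% and 59.8% of gains, so the ranges overlapped. The vector_NT libraries then called 81.5% and 78.6% of losses and 81.9% and 79.9% of gains. For losses and gains of the full lists, the longer parental lists called 78.3% of the losses in either library. They called 72.7% and 74.2% of the gains, against 83.02% and 83.3% of all regions. In WM983B the libraries called 77.8 to 79.2% of the losses and 63.6 to 68.0% of the gains, against 79.9 to 81.8% of all regions. Losses and gains were thus listed less often than regions as a whole in the vector, parental and WM983B libraries.

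**Figure D4:**
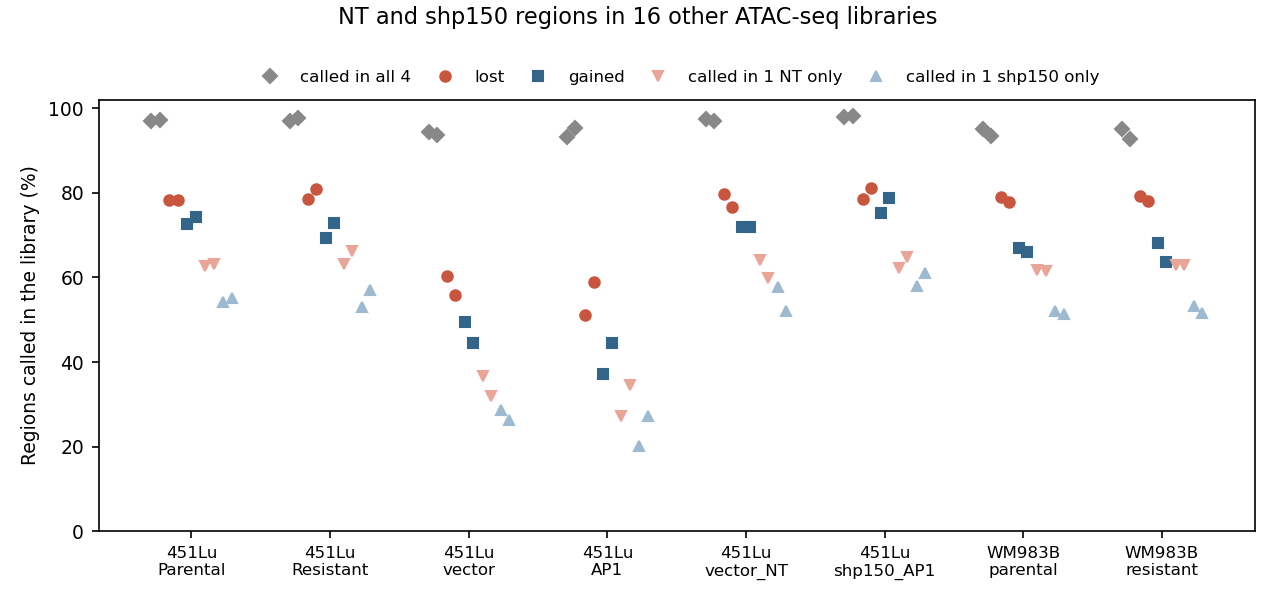
Share (%) of regions of each class called in 16 other ATAC-seq libraries, 1 point per library and 2 per group, for regions called in all 4 libraries (grey), lost (red), gained (blue) and called in a single NT or shp150 library (pale). Lost regions lie between 51.2% and 81.1%, and the shp150_AP1 and vector_NT points for them overlap.

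The combined cells allow a comparison under a hairpin against p150 in libraries and controls that the comparison did not use. Losses of shp150 cells were called in 78.5% and 81.1% of cases in shp150_AP1 and in 79.8% and 76.7% in vector_NT libraries. The difference was 1.48 percentage points towards more calls in shp150_AP1 (exact two-sided permutation p = 0.667), and the groups overlapped. Over all 43573 regions called in both NT libraries it was 1.15 points. Within each of the 3 lower classes of NT score, shp150_AP1 calls exceeded vector_NT calls by 0.902 to 2.08 points for lost regions. For regions kept in both shp150 libraries they did so by 1.17 to 2.05 points. In the fourth class the difference was -1.06 points for the 47 lost and 0.594 points for kept regions. Calls missing in shp150 cells were therefore not fewer in the combined cells by this measure. The shp150_AP1 lists were longer on average, and the sign depended on the choices made. With the 4 combined-cell lists cut to equal length the difference was -0.637 points, and without vector_NT replicate 2 it was -0.0675.

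For the 2442 losses that both vector libraries also called, the order turned. These were called in 94.02% and 94.9% of cases in shp150_AP1 and in 97.2% and 96.1% in vector_NT libraries, without overlap (exact two-sided permutation p = 0.333). The difference was -2.21 points, against -0.449 points over all 35719 regions called in both NT and both vector libraries. Few losses were lost again as such. In 116 of the 5185 (2.24%), both vector_NT and neither shp150_AP1 library called the region, where 1.32% of all 69032 regions showed that pattern. The 116 were 12.7% of the 913 regions with it. Regions called in 1 NT library and no shp150 library held it more often than losses, in 3.01% (379). The reverse pattern, in shp150_AP1 and not in vector_NT, was held by 169 losses (3.26%), against 2.4% of all regions. In the lowest class of NT score, 2.47% of losses and 1.09% of regions kept in both shp150 libraries were lost in the combined cells. In the middle class these shares were 2.84% (13 regions) and 0.272%.

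Gains of shp150 cells were called more often in the combined cells than in their control. The shp150_AP1 libraries called 75.2% and 78.9% of the 516 gains, and each vector_NT library called 71.9% (371 regions). The difference of 5.14 points was without overlap (exact two-sided permutation p = 0.333, the smallest possible). It was 4.64 points for regions called in 1 shp150 library and no NT library, and 1.68 points over all regions. With the combined-cell lists cut to equal length, the difference for gains was 1.26 points and the groups overlapped (exact permutation p = 0.667). Among the 213 gains that neither vector library called, the libraries of shp150_AP1 called 52.1% and 60.6% and those of vector_NT 44.6% and 41.8%. The difference there was 13.2 points, against 8.67 points for the 3519 single-library shp150 regions without a vector call. Of the 516 gains, 22 (4.26%) were also gained in the combined cells, against 2.4% of all regions. That share was 4.70% among regions called in 1 shp150 library and no NT library. The 22 were 1.33% of the 1658 regions gained there.

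In the AP1 comparison, the treated cells did not call the gains more often than their control. The AP1 libraries called 37.2% and 44.6% of the gains, and the vector libraries 49.4% and 44.6% (exact two-sided permutation p = 0.667). The mean difference was -6.1 points for gains. It was -3.8 points for regions called in 1 shp150 library and no NT library, and -1.71 points over all regions. AP1 lists were shorter on average than vector lists, and shp150_AP1 lists longer than vector_NT lists. The part of list length in these differences was not tested. In the AP1 comparison 5 gains (0.969%) were gained as well, against 1.16% of all regions, and 27 (5.23%) were lost, against 1.78%. Of the losses, 168 (3.24%) were lost in AP1 cells and 93 (1.79%) gained. The difference between the combined and the AP1 comparison was not tested.

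Lost and gained regions carried H3K27ac less often than regions called in all 4 libraries. Losses carried it more often than regions called in 1 NT library only, and gains were close to regions called in 1 shp150 library only. The parental H3K27ac list overlapped 9.39% of losses, 4.26% of gains and 29.8% of regions called in all 4. It overlapped 17.3% of all regions, 6.01% of those called in 1 NT library only and 3.23% of those called in 1 shp150 library only. The H3K27ac list of resistant cells overlapped 12.4%, 4.84% and 34.1%. The list of replicate 1 was used for each, and replicate 2 was not analysed here, so these shares have no replicate check. The gap was also present within classes of NT score. In the lowest class of NT score, parental H3K27ac marked 9.36% of losses (exact 95% interval 8.38 to 10.4%) and 13.3% of regions kept in both shp150 libraries (11.98 to 14.7%). In the middle class these shares were 9.85% (7.27 to 12.9%) and 25.6% (24.5 to 26.6%). Among kept regions the H3K27ac share was higher in each higher class, while among losses of the 3 lower classes it lay between 9.36 and 9.85%. Losses were narrower than kept regions of the same class (368 against 493 bp in the lowest), and the part of width in the result was not tested. Kept regions merge peaks of 4 lists and losses peaks of 2, so part of this difference in width comes from the merging.

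H3K9me3, the mark of the heterochromatin in which p150 is known to act, differed little at losses. Islands of vector_NT cells with a false discovery rate of at most 0.01 overlapped 5.48% ± 0.0818 of losses and 5.26% ± 0.0728 of regions called in all 4 (SD, n = 2). For gains the share was 7.56% ± 0.274, and over all regions it was 5.70% ± 0.0533 (SD, n = 2). In vector_NT replicate 1 this was 40 of 516 gains (exact 95% interval 5.60 to 10.4%), an interval that includes the share over all regions. Regions called in 1 shp150 library and no NT library had a share close to that of the gains, 7.52% ± 0.227 (SD, n = 2). Parental islands gave 4.74% ± 0.164 for losses and 6.49% ± 0.137 for gains (SD, n = 2). In resistant cells these shares were 4.12% ± 0.0136 and 4.65% ± 0.822, against 6.09% ± 0.176 for the single-library shp150 regions (SD, n = 2). By these means the gains lay nearer to the losses, but the 2 resistant libraries differed. Replicate 1 gave 5.23% for gains, 4.13% for losses and 6.22% for the single-library shp150 regions, and replicate 2 gave 4.07%, 4.11% and 5.97%. In shp150_AP1 cells the shares were 5.91% ± 0.685, 4.07% ± 0.764 and 5.88% ± 0.63 in the same order (SD, n = 2). H3K9me3 in cells with the hairpin alone was not analysed here.

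Gains were unevenly spread over the chromosomes. They made up 1.43% of the regions on chromosome 4 (52 of 3638, exact 95% interval 1.07 to 1.87%) and 0.135% of those on chromosome 22 (2 of 1478, 0.0164 to 0.488%). Over chromosomes 4, 13 and 18, those with the fewest protein-coding genes per Mb, 79 of 6779 regions were gained (1.17%). Over chromosomes 17, 19 and 22, where the gained share was lowest, 21 of 6230 were (0.337%). At equal length these shares were 3.12% and 1.27%. Across the 23 chromosomes the share gained and the number of protein-coding genes per Mb had a Spearman's rho of -0.420 on full lists and -0.444 at equal length. These 6 chromosomes were chosen after the values were seen, and chromosomes of the same libraries are not replicates.

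**Figure D5:**
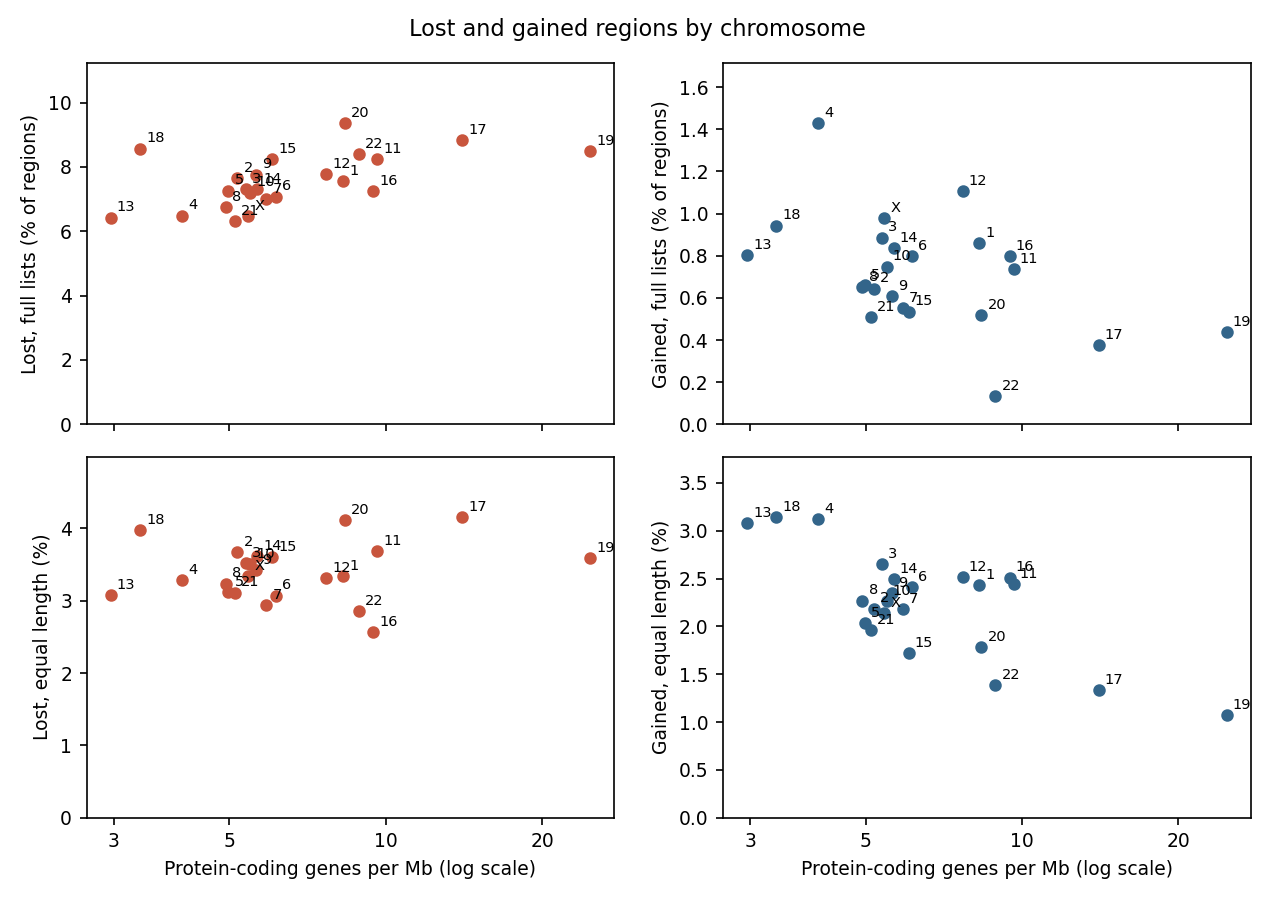
Share (%) of regions lost (red, left) and gained (blue, right) on each chromosome against its number of protein-coding genes per Mb (log scale), on full lists (top) and lists of equal length (bottom). The gained share is highest on chromosomes 4, 13 and 18 and lowest on 19, 17 and 22 at equal length.

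The same spread was found in regions called in 1 shp150 library and no NT library. They made up 10.4% of regions on chromosomes 4, 13 and 18 and 5.33% on chromosomes 17, 19 and 22. Regions called in 1 NT library and no shp150 library showed less of it, at 19.5% and 18.03%. The spread thus went with shp150 calls of either kind and not with gains alone. Losses varied less, from 6.31% of regions on chromosome 21 to 9.36% on chromosome 20. Their rho with gene density was 0.579 on full lists and 0.163 at equal length. In the AP1 comparison, which shares no library with this one, the rho was 0.481 for gains and -0.476 for losses on full lists, opposite in sign to the values for shp150. In the combined comparison it was -0.192 for gains and -0.642 for losses. The difference between comparisons was not tested.

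Losses and gains were spread over many windows of the genome. The losses fell into 2046 windows of 1 Mb with at most 10 in a window, and 474 windows held the gains, with at most 3. Of the windows with losses, 245 held 5 or more. Other regions were not counted by window, so clustering was not tested. The median distance from a loss to the nearest region called in all 4 libraries was 20.3 kb, and 14.1% of losses lay within 5 kb of one. For gains these were 34.6 kb and 8.91%. Regions called in 1 NT library only had a median distance of 23.03 kb, and those called in 1 shp150 library only 33.6 kb. In distance, gains were nearer to the single-library shp150 regions than to losses.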

How the data were processed

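Peak and island lists are the authors' files, 1 per library. Per the submitters' processing notes, the build was hg19 and the tools were MACS2, SICER, Bowtie2, deepTools, Picard and STAR 2.5.3, named without roles. Trimming, duplicate removal, any Tn5 shift and call thresholds were not given in the sources used here. Deposited ATAC-seq and H3K27ac files hold a score per peak, the authors' own value, used only to describe, rank or filter peaks within a list. The deposited H3K9me3 files hold a false discovery rate (an adjusted p-value) per island. Islands up to 0.01 were used.

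Peaks on chromosomes 1 to 22 and X were merged where they overlapped. In lists of equal length, peaks tied at the last score were drawn at random with a fixed seed. Peak calls allow no count model, so single values per library were compared by exact permutation over libraries, and region sets by counts. Regions named are the 10 best-scoring losses and gains on full lists, and 5 each at equal length, by the lower score of the 2 calling libraries. The members, lists and rules were chosen with earlier results of these data known. Gene numbers per chromosome came from RefSeq (GRCh38.p14), with chromosome length taken as the end of the last annotated gene. Gene lists, sequence motifs and cell type markers could not be read without an hg19 annotation. The scripts were tested on simulated lists. Python 3.11.15, numpy 2.4.6, scipy 1.17.1 and pandas 2.3.3 were used.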

Additional observations from a re-analysis of the deposited data

How the results depend on the processing

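At equal length 2032 regions were lost and 1362 gained. Keeping or leaving out all peaks tied at the last score gave 2046 or 1957 losses and 1369 or 1367 gains, settings chosen after seeing the data. A score of at least 5 left 278 gains. Without 1 of the 4 libraries, losses ranged from 9125 to 12459 and gains from 1128 to 3458, since 1 library then suffices on 1 side. The median width of losses was 431 bp with 50% of the region covered, 412 bp at a score of at least 5 and 246 to 399 bp without 1 library. That of gains was 346 bp at equal length (345 and 347 bp with ties kept or left out), 331.5 bp with 50% covered, 330 bp at a score of at least 5 and 214 to 344.5 bp without 1 library. The difference in calls of losses between shp150_AP1 and vector_NT reversed to -2.21 points for losses called in both vector libraries and to -0.637 with combined-cell lists of equal length, and ranged from -0.0675 to 3.04 without 1 library. The cause was not tested. For gains it kept its direction in all 17 settings (1.26 to 13.2 points), and the deficit of shp150 peaks did in all 6. Several of these settings could not have reversed it. The compared groups did not overlap, so leaving out 1 of the compared libraries keeps the sign, and the replicate block leaves the difference unchanged. For the number of peaks, only the score of at least 5 could have changed the sign. With replicate numbers as a block the counts stayed 5185 and 516 by construction, and the paired exact permutation p for the number of peaks was 0.5. Deviations of same-numbered libraries did not correlate (r = 0.00621), so the numbers were not taken to pair the samples. Peak lists give no depth, so a region not listed may still be open below the threshold.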

Other observations

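A small part of the losses and gains was listed in no other 451Lu ATAC-seq library. These were 287 losses (5.54%) and 44 gains (8.53%). Among regions called in 1 NT library only the share was 13.5%, and among those called in 1 shp150 library only 20.6%. Of the 6 other 451Lu control libraries (parental, vector and vector_NT), all 6 called 2280 losses (44.0%) and 170 gains (32.9%), and none called 610 losses (11.8%) and 79 gains (15.3%). Of the regions called in both NT libraries, all 6 called 80.5% and none called 3.15%. That both NT lists lack those 170 gains, and both shp150 lists the 2280 losses, follows from the rule. The counts over the 6 control libraries were not made for regions called in a single library.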
